A study of Canis lupus familiaris with 6 samples.

Results

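Interferon-stimulated genes and the antigen presentation genes induced with them were followed in adipogenic cultures of dog cells with and without bisphenol A (BPA), a plastic monomer with weak oestrogenic activity. The set was a list of 37 gene names. It matched 34 of the 23299 named rows of the expression table by exact symbol, and the other 3 (IRF1, IFIT1 and SAMD9) were not analysed here. The cells were canine adipose-derived stem cells, the stromal precursors of fat tissue, and 3 control libraries (with the solvent DMSO) and 3 BPA libraries (with 1 µM BPA) were made on day 14 of differentiation. Both groups received the same inducing medium after 2 days of culture: insulin at 10 µg/mL, rosiglitazone, an activator of the adipogenic receptor PPARG, at 200 nM, and dexamethasone at 1 µM. Dexamethasone is a glucocorticoid that dampens immune gene expression, and control and BPA cultures carried it alike. The labels give no breed, age, sex or number of donor dogs and no sign that same-group libraries were grown separately, so a p-value here measures the spread between these 6 libraries, which may be technical.

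Type I interferons signal through the receptor pair IFNAR1 and IFNAR2 and the kinases JAK1 and TYK2 to a transcription complex that holds STAT2 and IRF9 and switches on a large set of antiviral genes. Many of these genes also have a basal level in stromal cells that have met no virus, and fat cells and their precursors respond to interferon. Interferon gamma acts through its own receptor, JAK1 and JAK2, and through the factors IRF1 and NLRC5, which raise the genes that cut proteins into peptides, carry the peptides into the endoplasmic reticulum and load them on MHC class I.

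Values are in TPM (transcript abundance, given as a gene's length-corrected share of its library), so levels can be compared between genes. The deposited values are log2(TPM + 1), and a difference between groups is BPA minus control on that scale, where the added 1 shrinks the differences of weakly expressed genes. The table keeps no read depth. The 6 libraries held between 19649 and 20321 genes above 0. They did not divide by treatment along their main axis, which in a principal component analysis held 79.8% of the variance, with BPA replicate 3 at a score of 61.1, control replicate 2 at 11.3 and the other 4 libraries from -29.9 to -0.10. BPA replicate 3 thus stood apart, and for many results the value without it is also given. All 6 adipocyte markers of the list were expressed, 5 above control with BPA and leptin (LEP) below it, and 0 passed the test. Their median log2 difference was 1.22 (1.26 without BPA replicate 3), against 0.03 over all tested genes. ADIPOQ, FABP4, PLIN1 and CIDEC lay higher in every BPA library, LEP lower in every one, and LPL overlapped. ADIPOQ was at 10.7 ± 3.53 TPM in control and 33.0 ± 7.13 TPM in BPA. The summed level of the 6 markers, most of it LPL and LEP, was 604.7 to 712.5 TPM in control and 621.4 to 890.2 TPM in BPA. Of the stromal markers 6 of 7 were in the table and 5 were tested, all 5 above control (1 of 5 without BPA replicate 3, 4 of 5 with median centring), and 0 passed; NT5E lay under the filter. They summed to 6570.2 to 13100.4 TPM in control and 6540.8 to 30016.5 TPM in BPA. The part of adipocyte and stromal content in the results was not tested. The common leukocyte antigen PTPRC was under 0.01 TPM in every library. Of the macrophage markers, 9 of 12 were in the table, with a summed level of 28.6 to 39.9 TPM in control and 31.5 to 52.1 TPM in BPA, most of it CD14. CD14 lay above control, CD68 and CSF1R lay below, and the other 6 were each under 0.5 TPM in every library. The 8 endothelial markers summed to between 0.93 and 1.57 TPM.

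Most of the set was expressed at a low to moderate basal level. By mean over the 6 libraries, 3 of the 34 genes were at 50 TPM or more, 9 from 10 to 50 TPM, 14 from 1 to 10 TPM and 8 under 1 TPM. Beta-2-microglobulin (B2M), the invariant light chain of MHC class I, was by far the most abundant at 1536 TPM, rank 120 of all 23299 genes. SAMD9L, a restriction factor of poxviruses, and IFIT5, which binds viral RNA ends, followed at 68.6 and 68.1 TPM, and then STAT2 at 45.0 TPM. The 8 genes under 1 TPM (IRF7, USP18, HERC5, MX2, IFIT2, RSAD2, ISG20 and XAF1) ranged from 0 to 1.34 TPM over the libraries, and several of them are among the genes most strongly induced by interferon in other cells.

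**Figure D1:**
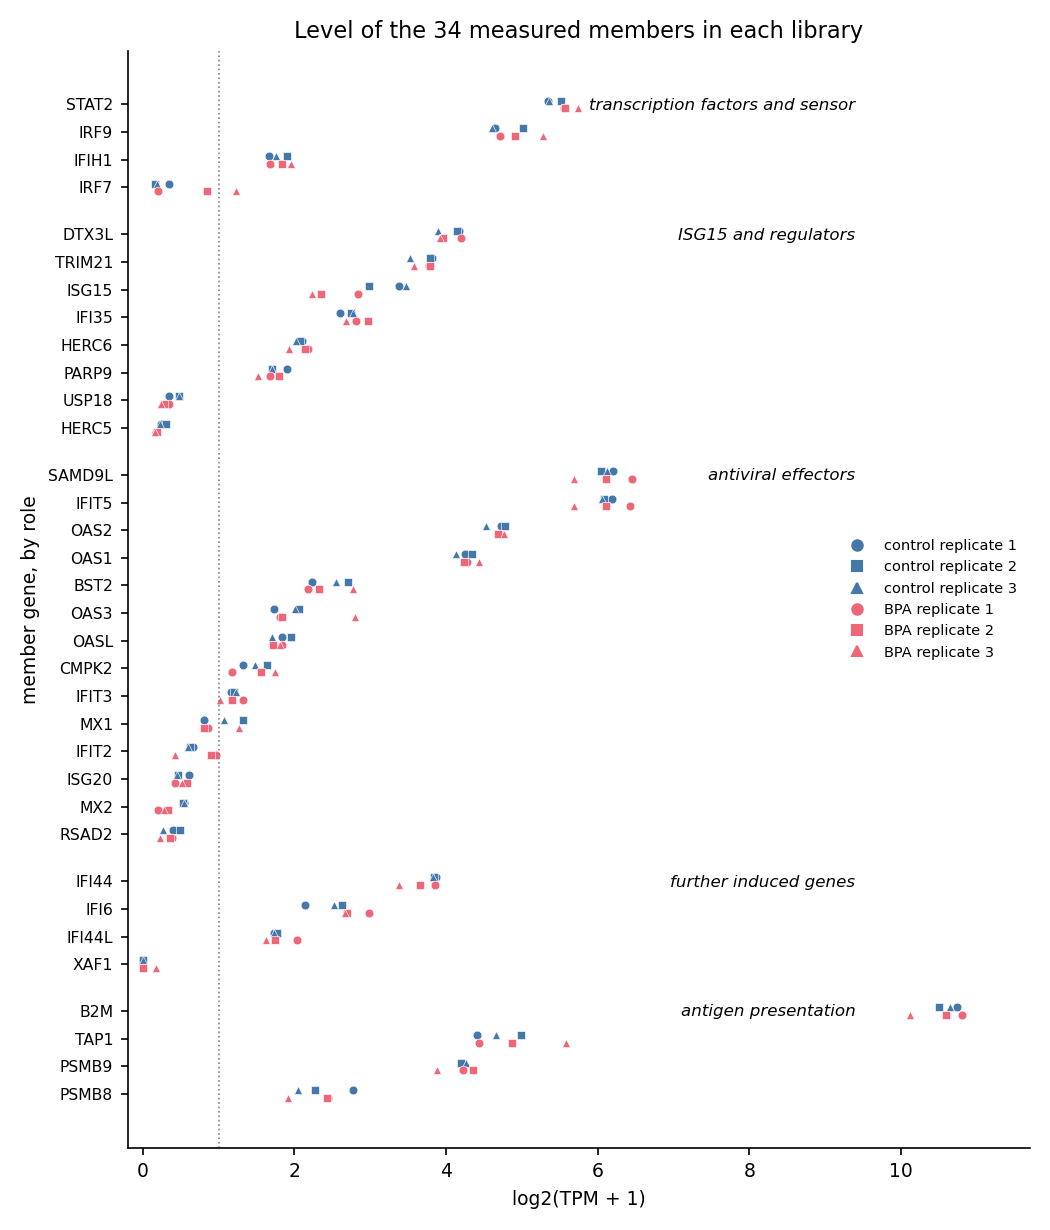
Level of each of the 34 measured genes in each library, as log2(TPM + 1) on the horizontal axis, grouped by role. Blue marks are control and red marks BPA libraries, marker shape gives the replicate, and the dotted line marks a value of 1, the minimum mean for testing; B2M lies far to the right and 8 genes have means left of the line.

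A total of 26 of the 34 genes passed the filter on low values, a mean log2(TPM + 1) of at least 1, and were tested with the 12277 genes that did. BPA was compared with control by limma, with Benjamini-Hochberg adjustment over all 12277 genes. Of the 26 genes 0 passed at an adjusted p of 0.05, as did 0 (0.0%) of all tested genes, and their adjusted p ran from 0.901 to 0.994. At an unadjusted p under 0.05 there was 1 of 26, ISG15, against 3.58% of all tested genes in either direction (1.87% higher, 1.7% lower), a share near the background. Groups did not overlap for 3 of 26 genes, against 9.37% of all tested genes: STAT2 and IFI6 were higher in every BPA library (2 of 26, against 5.38%) and ISG15 was lower in every one (1 of 26, against 3.98%).

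The set had no common direction. With BPA 13 of the 26 genes lay above control and 13 below, where 56.6% of all tested genes lay above, and the median difference was -0.01 against 0.03 over all tested genes. These counts depend on scaling: with each library centred on its median 6 of 26 lay above control and 39.5% of all genes, and after quantile normalization 7 of 26 and 44.0%. Without BPA replicate 3, 16 of 25 lay above, with a median of 0.05. Single differences ran from -0.80 for ISG15 to 0.35 for IFI6, and the median SE of a difference was 0.14 (0.15 over all tested genes). The range over the 6 libraries had a median of 0.48 log2 units, against 0.54 over all tested genes. It was widest for ISG15, at 1.24, and narrowest for the ubiquitin ligase HERC6, at 0.24.

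**Figure D2:**
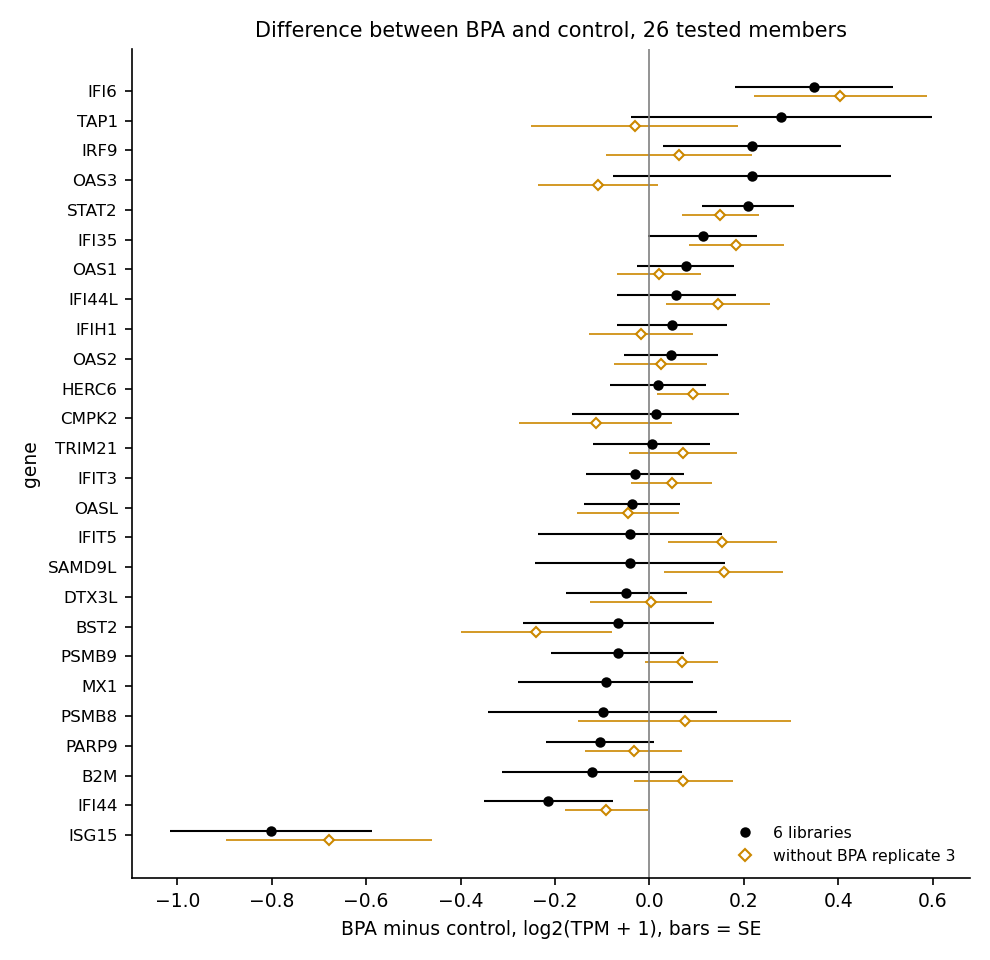
Difference between BPA and control on the log2(TPM + 1) scale for the 26 tested genes, in order of size, with SE as bars. Black circles use 6 libraries and open diamonds leave out BPA replicate 3 (MX1 fell under the filter there). ISG15 stands apart at -0.80. TAP1, OAS3, B2M, IFIT5, SAMD9L, IFIH1, DTX3L, IFIT3, CMPK2, PSMB8 and PSMB9 change sign without that library.

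ISG15 is a ubiquitin-like protein that is attached to other proteins during the interferon response and is also secreted. It was at 9.42, 6.90 and 10.1 TPM in control replicates 1, 2 and 3 and at 6.18, 4.11 and 3.70 TPM in BPA replicates 1, 2 and 3. Every BPA library thus lay below every control library, with the smallest gap between control replicate 2 and BPA replicate 1. The means were 8.79 ± 1.67 TPM (SD, n = 3) in control and 4.66 ± 1.33 TPM in BPA, a ratio of 0.53. In a culture with several kinds of cells, fewer cells of one kind and less RNA per cell cannot be told apart. The log2 difference was -0.80 (SE 0.21, limma, adjusted p = 0.901), and its p ranked 97 of 12277 tested genes. The gene was not tested with the filter at a mean of 3. In every other alternative the difference kept its sign, from -0.52 with a pseudocount of 5 to -0.99 without BPA replicate 1. Its adjusted p (limma) ran from 0.409 to 0.9999. Without BPA replicate 3 it was -0.68.

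Enzymes that attach and remove ISG15 were in the set or its pathway list. HERC5, the ligase that joins ISG15 to its targets, was at 0.181, 0.232 and 0.166 TPM in control replicates 1, 2 and 3 and at 0.13, 0.141 and 0.118 TPM in BPA replicates 1, 2 and 3, without overlap. USP18, the protease that removes ISG15 and restrains IFNAR2 signalling, was at 0.268, 0.396 and 0.386 TPM in control and at 0.272, 0.214 and 0.179 TPM in BPA, where replicate 1 of both groups met. Both genes lay under the filter. UBA7 and UBE2L6, the activating and conjugating enzymes of ISG15, are described outside the rule for named genes, after their values were seen. They overlapped between groups, at 12.6 ± 2.14 TPM in control and 16.0 ± 4.99 TPM in BPA for UBA7 and at 16.2 ± 1.52 and 15.2 ± 3.42 TPM for UBE2L6. HERC6, a ligase related to HERC5 and next to it in the gene order of the RefSeq dog assembly UU_Cfam_GSD_1.0, was at 3.18 ± 0.118 and 3.25 ± 0.374 TPM and also overlapped.

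MX2, a dynamin-like GTPase that blocks viruses at the nucleus, was at 0.454, 0.44 and 0.456 TPM in control replicates 1, 2 and 3 and at 0.152, 0.263 and 0.212 TPM in BPA replicates 1, 2 and 3. The control libraries lay close together and all BPA libraries lay at lower values, a ratio of means of 0.46. MX2 was under the filter, so it entered only the fit without a filter over 23299 genes, where its log2 difference was -0.26 (SE 0.04, limma, adjusted p = 0.557). Its neighbour MX1, the cytoplasmic GTPase, overlapped at 1.12 ± 0.376 and 0.99 ± 0.355 TPM. MX1 and MX2 are paralogs, and how any reads shared between related genes were counted is not given in the sources used here. The same holds for the OAS, IFIT, IFI44 and MHC class I genes.

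In that fit without a filter, 4 of the 34 genes had an unadjusted p under 0.05, namely ISG15, MX2, HERC5 and USP18, and all 4 were lower with BPA. Over all 23299 genes 2.3% were lower and 2.27% higher at that threshold. None of the 4 passed adjustment over all genes (adjusted p from 0.557 to 0.912), and 3 of them lay under 1 TPM. The genes under the filter that are described singly, PSMB8, HERC6 and the smaller effectors were also taken up after their values were seen. Groups did not overlap, with BPA lower, for 3 of 34 genes against 4.18% of all genes. Among the 8 genes under the filter these were MX2 and HERC5, 0 were higher without overlap and 6 overlapped.

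**Figure D3:**
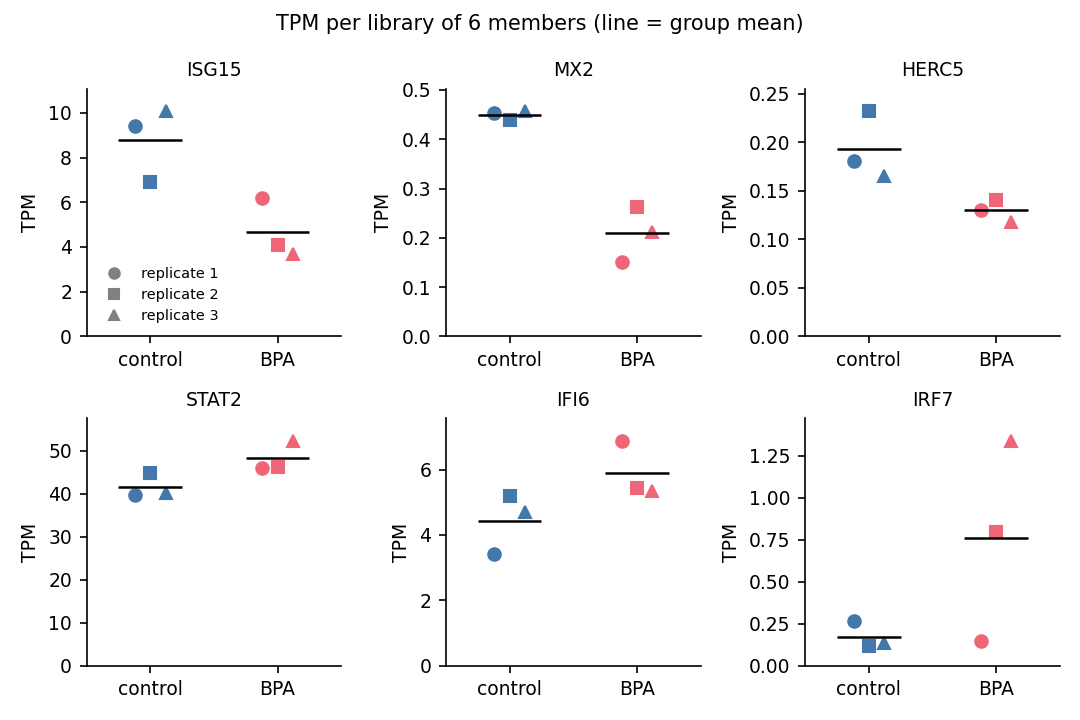
TPM in each library for ISG15, MX2, HERC5, STAT2, IFI6 and IRF7, with control in blue, BPA in red, a marker shape for each replicate and a line at the group mean (n = 3). The BPA libraries lie below all control libraries for ISG15, MX2 and HERC5 and above them for STAT2 and IFI6, while BPA replicate 1 of IRF7 lies among the control libraries.

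The 3 tested genes of signalling and sensing had means above control, as 2 of the 3 had with median centring or quantile normalization. STAT2, the signalling subunit specific to interferon, was at 39.8, 44.9 and 40.2 TPM in control replicates 1, 2 and 3 and at 46.1, 46.4 and 52.4 TPM in BPA replicates 1, 2 and 3. Groups did not overlap, but control replicate 2 and BPA replicate 1 were close. The log2 difference was 0.21 (SE 0.10, limma, adjusted p = 0.901) and 0.15 without BPA replicate 3. It was 0.13 with median centring and 0.14 with quantile normalization.

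IRF9, which gives the STAT complex its DNA binding, was at 24.0, 31.3 and 23.3 TPM in control and at 25.3, 29.1 and 37.9 TPM in BPA. BPA replicate 3 was highest and control replicate 2 next, so the groups overlapped, and the log2 difference of 0.22 became 0.06 without BPA replicate 3. IFIH1 (MDA5), a cytoplasmic sensor of double-stranded RNA, was at 2.43 ± 0.291 and 2.55 ± 0.341 TPM; its difference of 0.05 turned negative under median centring, quantile normalization and without BPA replicate 3.

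IRF7, the factor that amplifies interferon production, was at 0.267, 0.116 and 0.134 TPM in control replicates 1, 2 and 3 and at 0.147, 0.797 and 1.34 TPM in BPA replicates 1, 2 and 3. BPA replicates 2 and 3 lay above every control library, and BPA replicate 1 lay inside the control range. The gene was under the filter, and its adjusted p was 0.912 in the limma fit without one.

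The remaining regulators differed by less than the spread between libraries. PARP9 and DTX3L, adjacent genes whose products form one complex that augments interferon signalling, were at 2.41 ± 0.268 and 2.17 ± 0.301 TPM and at 15.8 ± 1.72 and 15.3 ± 1.75 TPM in control and BPA. TRIM21, the antibody receptor and ubiquitin ligase of the cytosol, was at 12.1 ± 1.43 and 12.2 ± 1.03 TPM. IFI35 was at 5.53 ± 0.429 and 6.08 ± 0.717 TPM. All 4 overlapped between groups.

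No tested antiviral effector separated the groups: 4 of the 10 lay above control and 6 below (1 above with median centring or quantile normalization), and the smallest unadjusted p was 0.48. The OAS enzymes, which make an antiviral messenger from ATP on sensing double-stranded RNA, are a cluster of adjacent genes. OAS2 was at 25.3, 26.4 and 22.0 TPM in control replicates 1, 2 and 3 and at 25.2, 24.7 and 26.1 TPM in BPA replicates 1, 2 and 3. OAS1 was at 18.0, 19.2 and 16.5 TPM in control and at 18.4, 17.8 and 20.5 TPM in BPA. OAS3 was at 2.30, 3.16 and 3.03 TPM in control and at 2.51, 2.57 and 5.96 TPM in BPA. Only BPA replicate 3 stood out in OAS3, whose log2 difference was 0.22 with 6 libraries and -0.11 without that one. The related OASL overlapped at 2.56 ± 0.308 and 2.46 ± 0.145 TPM.

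SAMD9L and IFIT5, the most abundant effectors, had nearly the same level and the same order of libraries at both ends. SAMD9L was at 72.9, 64.7 and 69.0 TPM in control replicates 1, 2 and 3 and at 86.8, 68.0 and 50.5 TPM in BPA replicates 1, 2 and 3. IFIT5 was at 72.2, 67.0 and 65.7 TPM in control and at 85.0, 68.1 and 50.3 TPM in BPA. For both genes BPA replicate 1 was highest and BPA replicate 3 lowest, so the BPA libraries spanned the control range. Their group means were within 1 TPM of each other.

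Other effectors were low. IFIT3, a scaffold for the IFIT complex, was at 1.30 ± 0.0556 and 1.26 ± 0.238 TPM. CMPK2, a mitochondrial nucleotide kinase, was at 1.80 ± 0.315 and 1.85 ± 0.56 TPM, and BST2 (tetherin), which holds budding virions at the membrane, at 4.68 ± 0.915 and 4.46 ± 1.22 TPM. RSAD2 (viperin), the neighbour of CMPK2, reached at most 0.399 TPM, IFIT2 0.953 TPM and the exonuclease ISG20 0.524 TPM. Groups overlapped for these 6 genes.

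Among the further induced genes IFI6, an inhibitor of apoptosis and of flavivirus replication, was at 3.42, 5.18 and 4.72 TPM in control replicates 1, 2 and 3 and at 6.89, 5.44 and 5.36 TPM in BPA replicates 1, 2 and 3. Every BPA library lay above every control library, by a narrow gap between control replicate 2 and BPA replicate 3. The log2 difference of 0.35 (SE 0.17, limma, adjusted p = 0.901) was the highest of the 26 tested genes and was 0.40 without BPA replicate 3. It was 0.27 with median centring and 0.28 with quantile normalization. IFI44 was at 13.5, 13.3 and 13.2 TPM in control and at 13.4, 11.6 and 9.41 TPM in BPA, where replicate 1 met the control values. Its neighbour IFI44L overlapped at 2.35 ± 0.0534 and 2.51 ± 0.517 TPM. XAF1 was listed at 0 in all libraries but BPA replicate 3, at 0.123 TPM.

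All 4 antigen presentation genes had an extreme value in BPA replicate 3, 1 at the top and 3 at the bottom. That library was the highest or lowest for 81.2% of all tested genes, so such a place was common. B2M was at 1708, 1454 and 1602 TPM in control replicates 1, 2 and 3 and at 1790.0, 1549.9 and 1113 TPM in BPA replicates 1, 2 and 3. TAP1, a subunit of the peptide transporter, was at 20.2, 30.8 and 24.2 TPM in control and at 20.6, 28.3 and 47.0 TPM in BPA. PSMB9, a catalytic subunit of the immunoproteasome, was at 17.5, 17.3 and 18.2 TPM in control and at 17.7, 19.5 and 13.7 TPM in BPA. BPA replicate 3 was thus the lowest library for B2M and PSMB9 and the highest for TAP1. The MHC class I genes DLA88, DLA-12 and DLA-64, given after their values were seen, were also highest in that library, at 755, 663 and 105 TPM. DLA-79 was highest in BPA replicate 1, at 1.53 TPM.

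PSMB8, a further catalytic subunit, was at 5.83, 3.84 and 3.13 TPM in control and at 4.44, 4.40 and 2.77 TPM in BPA, again lowest in BPA replicate 3. PSMB8, TAP1 and PSMB9 follow one another in the gene order of the assembly, next to TAP2. The log2 differences were -0.12 for B2M, -0.10 for PSMB8, -0.07 for PSMB9 and 0.28 for TAP1, and without BPA replicate 3 they were 0.07, 0.08, 0.07 and -0.03, so that all 4 changed sign. None of the 4 separated the groups.

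Partners of these genes in the pathway list were also split, but more of them were highest than lowest in BPA replicate 3. That library was highest for 10 of the 18 tested and lowest for 6. It was highest for 38.9% of all tested genes and lowest for 42.4%. TAP2, the second transporter subunit, was at 13.0, 24.9 and 16.8 TPM in control replicates 1, 2 and 3 and at 14.5, 21.6 and 54.7 TPM in BPA replicates 1, 2 and 3. Tapasin (TAPBP), which holds MHC class I to the transporter, was at 32.3, 70.3 and 42.1 TPM in control and at 34.5, 63.0 and 166 TPM in BPA. Both were highest in BPA replicate 3 and next highest in control replicate 2, and their log2 differences of 0.53 and 0.63 became 0.01 and 0.03 without BPA replicate 3. The collagen gene COL1A1, a stromal marker, also had its highest values in these libraries, at 24502 TPM in BPA replicate 3 and 8114 TPM in control replicate 2 against 2169.6 to 4329.9 TPM in the others, and its part in these results was not tested.

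The 3 immunoproteasome subunits, the constitutive subunits PSMB5, PSMB6 and PSMB7 and the activator subunits PSME1 and PSME2 were lowest in BPA replicate 3. So were 42.4% of all tested genes. PSME3, which forms another activator, was highest there, at 167 TPM against 99.2 to 126 TPM in the other libraries. PSMB10 was lowest in BPA replicate 3, at 32.0 TPM, against 38.5 to 47.3 TPM in the other libraries. PSME2, a subunit of the interferon-induced proteasome activator, was at 129.5, 107 and 117 TPM in control and at 109.8, 101 and 77.5 TPM in BPA. Its log2 difference was -0.30 (SE 0.16, limma, adjusted p = 0.901) and -0.15 without BPA replicate 3. The constitutive subunit PSMB5 was at 242, 236 and 234 TPM in control and at 223, 227 and 190.0 TPM in BPA, without overlap. Its log2 difference was only -0.16 (SE 0.10, limma, adjusted p = 0.901) and -0.08 without BPA replicate 3. The 3 immunoproteasome subunits summed to between 48.5 and 71.2 TPM, which was from 9.11% to 11.2% of the summed level of these and their constitutive counterparts PSMB5, PSMB6 and PSMB7. In order of replicate that share was 9.95, 9.54 and 9.30% in control and 9.73, 11.2 and 9.11% in BPA, and the groups overlapped.

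**Figure D4:**
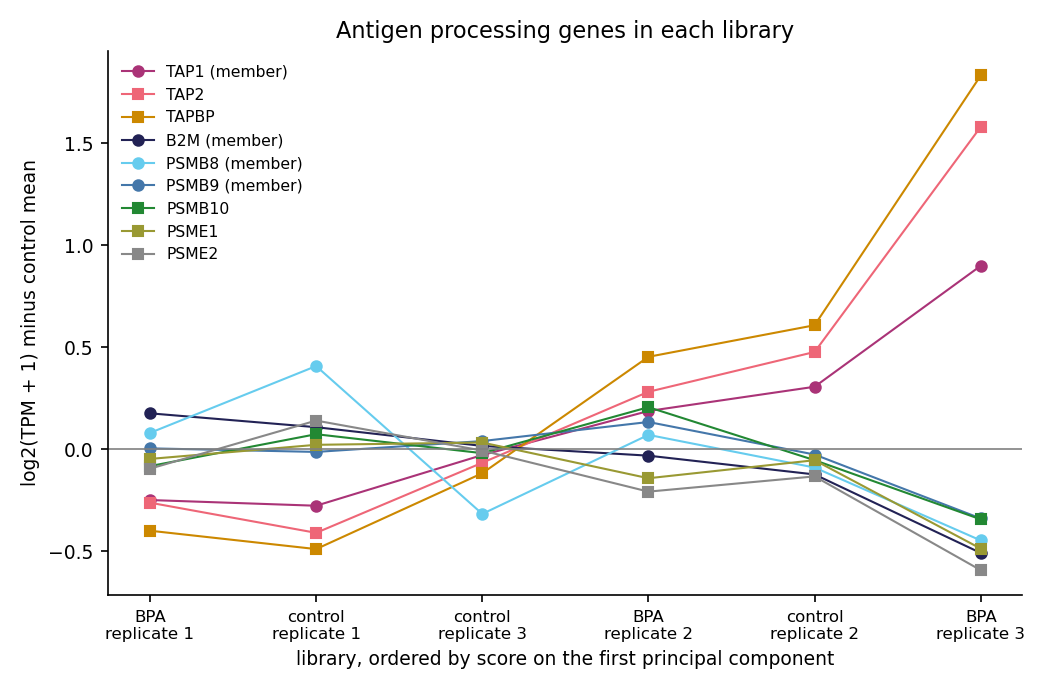
Antigen processing genes in each library as log2(TPM + 1) minus the gene's control mean, with libraries ordered by their score on the first principal component from left to right; circles are genes of the set and squares are others. TAP1, TAP2 and TAPBP are highest in BPA replicate 3 (47.0, 54.7 and 166 TPM), while B2M, the 3 immunoproteasome subunits, PSME1 and PSME2 are lowest there. The constitutive subunits PSMB5, PSMB6 and PSMB7, not drawn, are also lowest there. Over all tested genes that library is highest for 38.9% and lowest for 42.4%.

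Over the whole set, BPA replicate 3 was the highest of the 6 libraries for 8 of the 26 tested genes and the lowest for 11, where over all tested genes it was highest for 38.9% and lowest for 42.4%. BPA replicate 3 and control replicate 2 together were the top pair for 9 genes (IRF9, IFIH1, MX1, OAS1, OAS2, OAS3, CMPK2, BST2 and TAP1) and the bottom pair for 3 (SAMD9L, B2M and PSMB9). Over all tested genes these shares were 26.03% and 20.9%. The mean deviation of the 26 genes from the control mean was 0.03, -0.01 and -0.02 in the BPA libraries and -0.03, 0.06 and -0.04 in the control libraries, each in order of replicate.

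Other genes of antigen processing and MHC class I numbered 18 tested of 20 in the table. With BPA 12 lay above control and 6 below (median 0.03), and 0 passed in either direction. With median centring 6 lay above, with quantile normalization 10, and without BPA replicate 3 also 10 (median 0.01). The aminopeptidase ERAP1, which trims peptides for MHC class I, was at 10.5, 11.2 and 10.9 TPM in control replicates 1, 2 and 3 and at 12.9, 11.9 and 12.9 TPM in BPA replicates 1, 2 and 3. All BPA libraries lay higher (log2 difference 0.19, SE 0.09, limma, adjusted p = 0.901). NLRC5, the transactivator of MHC class I genes, was under the filter at 0.599 ± 0.141 and 0.891 ± 0.574 TPM. Of the MHC class II list 10 genes were in the table and 1 was tested, DLA-DMA, which overlapped at 1.62 ± 0.0435 and 1.63 ± 0.348 TPM. CD74, the invariant chain of MHC class II, and DLA-DOB, a chain of the peptide-loading modulator DO, are given after their values were seen. Groups overlapped for all other genes of the list under the filter. Without a filter, groups did not overlap, with BPA lower, for 4.18% of all 23299 genes. CD74 was at 0.548, 0.543 and 0.511 TPM in control replicates 1, 2 and 3 and at 0.303, 0.195 and 0.197 TPM in BPA replicates 1, 2 and 3, below every control library (adjusted p = 0.486 in the limma fit without a filter). DLA-DOB was at 0.0997, 0.0865 and 0.1 TPM in control and at 0.165, 0.248 and 0.438 TPM in BPA, above every control library (adjusted p = 0.912 in the same limma fit).

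Upstream, the interferon receptors differed little. The list of ligands and receptors had 5 tested genes, 1 above control and 4 below (median -0.11; 5 below with median centring or quantile normalization), and 0 passed. Without BPA replicate 3, 2 lay above control and 3 below (median -0.05). IFNAR1 overlapped at 24.8 ± 1.14 and 25.6 ± 3.40 TPM. IFNAR2 was at 2.75, 2.66 and 2.72 TPM in control replicates 1, 2 and 3 and at 2.56, 2.35 and 2.28 TPM in BPA replicates 1, 2 and 3, and IL10RB, the shared receptor of interferon lambda and interleukin 10, at 11.2, 10.8 and 11.1 TPM in control and 10.3, 10.2 and 10.0 TPM in BPA. Both lay lower in every BPA library, as did 3.98% of all tested genes. The log2 differences were -0.13 (SE 0.08) and -0.11 (SE 0.08), with an adjusted p of 0.901 for each (limma). The interferon beta gene IFNB1 was listed at 0 in control replicate 1 and in BPA replicates 2 and 3, and at 2.10, 1.22 and 0.669 TPM in control replicates 2 and 3 and BPA replicate 1.

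JAK-STAT genes had 8 of 10 tested members above control (median 0.17), 7 of 10 without BPA replicate 3 (median 0.04) or with median centring, and 0 passed. JAK1, the kinase used by every interferon receptor, was at 37.06, 38.3 and 37.03 TPM in control replicates 1, 2 and 3 and at 43.9, 45.2 and 43.5 TPM in BPA replicates 1, 2 and 3. The groups were tight and did not overlap, and all BPA libraries were higher. The log2 difference was 0.23 (SE 0.07, limma, adjusted p = 0.901). It was 0.24 without BPA replicate 3, and with median centring or quantile normalization it was 0.15 or 0.16 and its unadjusted p no longer lay under 0.05. PIAS1, an inhibitor of STAT signalling, was at 2.50 ± 0.0414 and 2.84 ± 0.217 TPM without overlap (log2 difference 0.13, SE 0.09).

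The list of nucleic acid sensors and adaptors, which also holds TLR4, had 9 of 11 tested members above control (median 0.13), and 0 passed. The count was 7 of 11 without BPA replicate 3 (median 0.05), with median centring or with quantile normalization. The lipopolysaccharide receptor TLR4 was at 6.43, 7.36 and 6.81 TPM in control and at 8.46, 9.96 and 7.28 TPM in BPA. BPA replicate 3 lay just inside the control range, and the log2 difference was 0.27 with it and 0.37 without it. IRF3, the factor that starts interferon beta transcription, overlapped at 133 ± 9.25 and 146 ± 11.5 TPM.

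**Figure D5:**
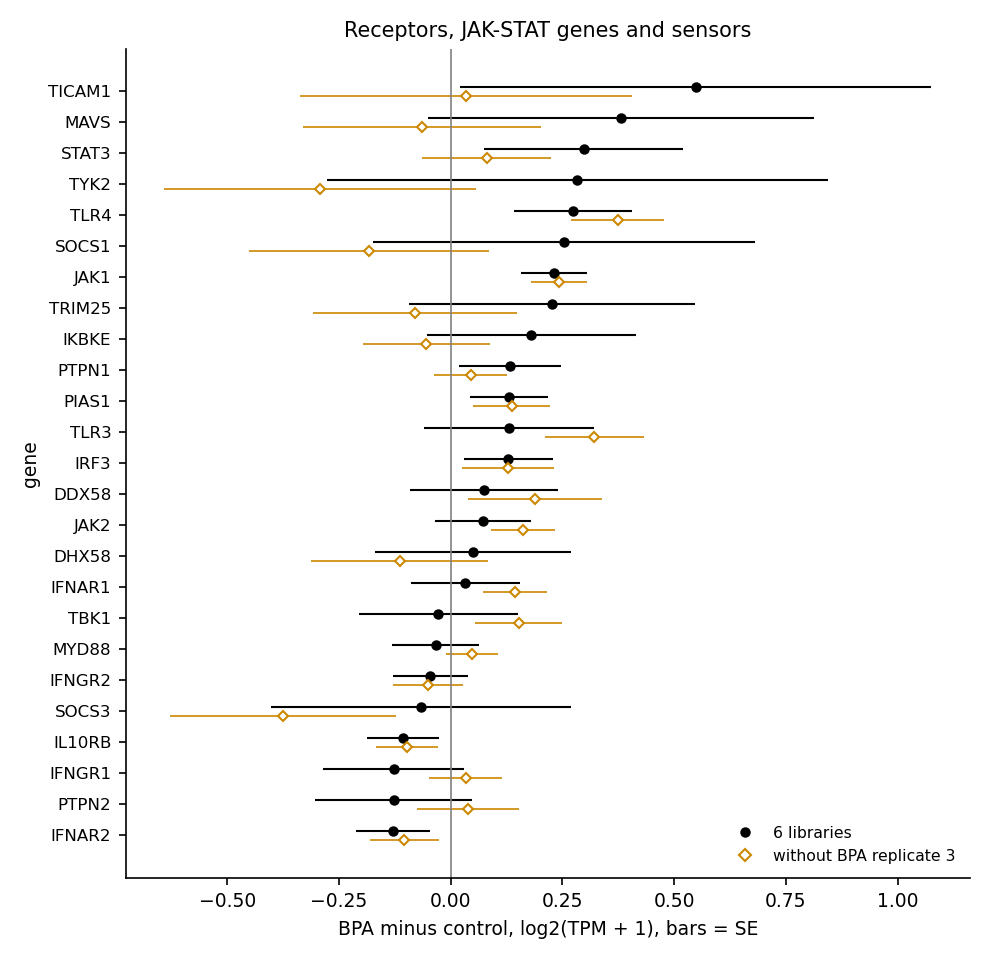
Difference between BPA and control on the log2(TPM + 1) scale, with SE as bars. The genes are tested interferon receptors, JAK-STAT genes and nucleic acid sensors and adaptors with TLR4, as named on the vertical axis. Black circles use 6 libraries and open diamonds leave out BPA replicate 3. JAK1 has a short bar and stays near 0.23 in both fits, whereas TICAM1, MAVS and TYK2 have wide bars and lose their positive difference or most of it without that library.

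A wider list of interferon-stimulated genes outside the set had 31 tested members of 40 in the table, with 16 above control and 15 below (median 0.01), and 0 passed. With median centring 12 lay above, with quantile normalization 14 and without BPA replicate 3 15. IFI27L2, a small gene of the family of IFI6 and IFI27, was at 425, 438 and 452 TPM in control replicates 1, 2 and 3 and at 405, 378 and 307 TPM in BPA replicates 1, 2 and 3. It lay lower in every BPA library (log2 difference -0.28, SE 0.12, limma, adjusted p = 0.901, and -0.16 without BPA replicate 3), while its relative IFI6 lay higher in every one. EIF2AK2 (PKR), which halts translation on double-stranded RNA, overlapped at 1.38 ± 0.0105 and 1.17 ± 0.203 TPM.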

How the data were processed

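The authors deposited one table of log2 values, whose file name calls them normalized log TPM. Back-transformed as 2 to the power of the value, minus 1, every library summed to 1000000, so they were read as log2(TPM + 1). Per the labels' protocols, libraries were stranded, poly(A)-selected mRNA. The sources used here name no aligner, counting tool or genome build, so no coordinates or sequences are printed. TPM keeps no depth, so no counting interval is given. Groups and replicate numbers came from the sample titles.

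Genes with a mean of at least 1 were fitted with limma 3.58.1 in R 4.3.3 (BPA against control, 6 libraries, no covariate, trended empirical Bayes, two-sided, Benjamini-Hochberg over 12277 genes), after a test on simulated data. An exact permutation test with 3 against 3 libraries cannot go below p = 0.1. Members and gene lists were chosen with earlier results of these data known. Named genes were, per role, the 3 of highest level and the 3 of smallest p, per pathway list the 2 of smallest p, and a fixed set that included IFNG and CXCL10, which were not analysed here. Alternatives were other filters, pseudocounts (0.1 and 5), scalings and models, a replicate block and leaving out each library. Of 37 member names 35 were symbols in the RefSeq gene table, which was used for gene order only. Results of 2 genes of the pathway lists are not reported here, though the lists' counts include them.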

Additional observations from a re-analysis of the deposited data

How the results depend on the processing

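Of the set 0 genes passed under each alternative filter, pseudocount, scaling, model, the replicate block and each left-out library. At an unadjusted p under 0.05 (limma) there was 1 in the main fit. That count was 4 without a filter, 2 without BPA replicate 1 and 1 in every other alternative but the filter at a mean of 3. There it was 0 of 12, and ISG15 was not among the genes tested. Over all genes 6 passed without a filter, from 0 to 1 with a library left out, and 439 had an unadjusted p under 0.05. The last count was 949, 271 and 685 without BPA replicate 1, 2 or 3 and 186, 331 and 177 without control replicate 1, 2 or 3, and the 1 gene that passed did so without BPA replicate 3. Members above control numbered 6 with the filter at a mean of 3 (of 12), 6 with median centring and 7 with quantile normalization. The median difference was -0.10 with median centring and from -0.034 to 0.0473 with a library left out. The replicate numbers were not taken to pair the libraries. Deviations of same-numbered libraries from their group means correlated at 0.72, -0.44 and -0.23. Control replicate 2 and BPA replicate 3, the highest on the main axis, correlated at 0.79. Such correlations depend on each library's place on that axis, so they cannot decide whether the libraries were paired. With the replicate block 0 of all genes and 0 members passed, and 264 genes had an unadjusted p under 0.05, against 439 without it.

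Differences that changed sign did not pass the threshold on either side, and among them were TAP1, OAS3 and B2M as well as smaller ones; the cause was not tested. With median centring these were IFIH1 at -0.0364, HERC6 -0.0657, TRIM21 -0.0795, OAS1 -0.00666, OAS2 -0.0385, CMPK2 -0.0706, IFI44L -0.0266, DLA-DMA -0.0823 and IFNAR1 -0.051. With quantile normalization they were IFIH1 at -0.0119, HERC6 -0.0448, TRIM21 -0.0853, OAS1 -0.00414, OAS2 -0.033, CMPK2 -0.041, DLA-DMA -0.0249 and IFNAR1 -0.0509, and with a pseudocount of 0.1 DLA-DMA was at -0.0031. With a library left out the differences ranged from -0.0178 to 0.12 for IFIH1, -0.0261 to 0.0933 for HERC6, -0.14 to 0.00416 for DTX3L, -0.0888 to 0.0713 for TRIM21, -0.0294 to 0.097 for OAS2, -0.11 to 0.39 for OAS3, -0.10 to 0.0246 for OASL, -0.11 to 0.0473 for IFIT3, -0.22 to 0.15 for IFIT5 and -0.11 to 0.17 for CMPK2. They ranged from -0.24 to 0.0555 for BST2, -0.23 to 0.16 for SAMD9L, -0.0575 to 0.14 for IFI44L, -0.27 to 0.0721 for B2M, -0.26 to 0.10 for PSMB8, -0.17 to 0.0687 for PSMB9, -0.0311 to 0.54 for TAP1, -0.10 to 0.0591 for DLA-DMA, -0.0277 to 0.14 for IFNAR1 and -0.21 to 0.0615 for PSMB10. Depth is unknown, so how far it limits genes under 1 TPM cannot be given.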
